A study of Mus musculus with 6 samples.

Results

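The ETS transcription factor genes Etv4 and Etv5, and genes reported to act downstream of the GDNF receptor RET in the tip of the ureteric bud, were compared between wild-type and Ret-deficient embryonic mouse kidneys. The 8 genes listed were Etv1, Etv4, Etv5, Myb, Met, Moxd1, Tmem59l and Slco4c1, and a probe set (a group of short probes that together read a transcript) was taken where the array's annotation gave it one of these as its only symbol. This yielded 14 of the 45101 probe sets, from 7 genes. Etv1 had none, because each of its 3 probe sets is also annotated to Gm5454, listed as a pseudogene by RefSeq. Whole kidneys at embryonic day 12.5 came from C57BL/6 mice of 2 genotypes, 3 wild-type and 3 Ret-deficient biological replicates, each on its own array. The labels name neither the Ret allele nor the litters or the number of embryos per sample, and their source field describes the pregnant female, not the embryo, as the knockout. The comparison asks how far these genes depend on Ret in the kidney.

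GDNF from the metanephric mesenchyme binds the receptor RET and its co-receptor GFRA1 on the ureteric bud, the epithelial tube that branches into the collecting system. RET signals through the ERK and PI3K pathways, and Etv4 and Etv5, members of the PEA3 group of ETS factors together with Etv1, are known targets of this signal that are needed for branching. FGF receptors signal through ERK as well and can also induce Etv genes. Myb and Met are among the genes placed downstream of Etv4 and Etv5 in the bud.

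ETS factors bind DNA around a GGAA core. The 250 bases before the annotated start of each gene were searched on both strands for CCGGAA, a core with the flank preferred by many ETS factors, and for AGGAAG, the site after which the PEA3 group is named. RefSeq windows (GRCm38.p6) were found for 7 of the 8 listed genes, all but Etv4, with 9 windows in all since some genes have several starts. CCGGAA was in none of the 9 windows, and 12% of all 32841 windows of the same length hold it. AGGAAG was in a window of Moxd1 and in a window of Etv1, and 29.5% of all windows hold it. No match says only that these letters are not in this stretch. The stretches of Myb and Tmem59l are shown because the groups of arrays did not overlap at the brightest probe set of these genes. That of Moxd1, which did not separate the groups, is shown with its match in capitals. Etv5 and Met did not separate the groups either, and their windows held no match.
Myb, chr10:21160985-21161234, minus strand: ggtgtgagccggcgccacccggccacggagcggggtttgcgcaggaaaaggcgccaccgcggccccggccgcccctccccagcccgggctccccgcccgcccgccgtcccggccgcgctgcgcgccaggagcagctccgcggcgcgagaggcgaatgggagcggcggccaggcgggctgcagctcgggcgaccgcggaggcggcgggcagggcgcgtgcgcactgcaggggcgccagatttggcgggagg
Tmem59l, chr8:70487349-70487598, minus strand: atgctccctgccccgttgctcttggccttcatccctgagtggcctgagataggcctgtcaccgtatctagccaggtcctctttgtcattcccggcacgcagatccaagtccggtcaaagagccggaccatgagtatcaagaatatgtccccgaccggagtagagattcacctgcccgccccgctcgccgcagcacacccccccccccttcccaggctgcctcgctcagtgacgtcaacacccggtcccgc
Moxd1, chr10:24223267-24223516, plus strand: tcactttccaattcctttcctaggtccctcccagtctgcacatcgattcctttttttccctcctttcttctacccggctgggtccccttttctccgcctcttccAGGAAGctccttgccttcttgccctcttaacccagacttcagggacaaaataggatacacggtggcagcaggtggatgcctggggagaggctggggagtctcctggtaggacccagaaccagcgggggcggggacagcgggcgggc

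The arrays differed within the groups before any of these genes is considered. Ret itself read 13315, 11042 and 10193 in wild-type replicates 1, 2 and 3 and 93.3, 479.8 and 334.1 in the Ret-deficient ones, so its level followed the labels on every array. Values are the authors' MAS5 signal, a brightness on a linear scale. The brightest of 27 bacterial control probe sets, which have no target in mouse RNA and gauge the background, read 97.2 to 186.9. Across the tested probe sets wild-type replicate 1 correlated with the other wild-type arrays at 0.949 and 0.952, while those 2 correlated at 0.983. Summed over 14 ureteric epithelium markers the signal was 62077 to 78823 in wild-type kidneys, and 7066, 58700 and 48761 in Ret-deficient replicates 1, 2 and 3. In Ret-deficient replicate 1, 7 of the 14 were not above the brightest control, among them Cdh1 (E-cadherin, 71.7) and Cldn7 (10.1), against 2 on each other array. These 2, Wnt7b and Hoxb7, were not above the control on any array. Nephron progenitor markers, 9 of 9 above the control on every array, summed to 54025 to 69751 in wild-type and 51000 to 70782 in Ret-deficient kidneys. Renal stroma markers (7) summed to 77091 to 90870 in wild-type and 99940 to 120968 in Ret-deficient kidneys. Induced nephron markers (7) summed to 41326 to 46579 and 31519 to 38199. Both sums were without overlap, but bright genes weigh most in them (Col3a1, Pdgfra and Col1a2, and Ccnd1 and Jag1). Of the stroma markers 3 were higher without overlap (Foxd1, Col1a2 and Dcn), and 2 had a negative difference (Pdgfra and Meis1). All 7 induced nephron markers had a negative difference, 2 without overlap (Lhx1 and Jag1). None of these markers passed an adjusted p of 0.05 in limma. The part of these cell types in the values below was not tested. In whole kidneys, fewer cells of a type and less RNA per cell cannot be told apart.

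Of the 14 probe sets 11 passed the filter on dim probe sets and were tested, and they represent 6 genes. None of the 11 passed an adjusted p of 0.05 in limma, a linear model fitted across all probe sets, and 0 of 22519 passed on the whole array (0%). At an unadjusted p under 0.05, 4 of the 11 were lower in Ret-deficient kidneys (3 of Myb and that of Tmem59l), as were 2.74% of all tested probe sets, and none was higher. That count is not stable: in a limma fit without the filter 1 of the 11 had such a p, and by gene it was 2 (Myb and Tmem59l), and 1 to 4 over the alternatives, with 1 without wild-type replicate 2 or 3 or Ret-deficient replicate 1 or 2. The groups did not overlap, with all Ret-deficient arrays lower, at 3 of the 11 (2 of Myb and that of Tmem59l) and at 5.54% of all tested probe sets. By gene this was 2 of 6, beside 664 of 11581 tested genes. Tmem59l and the dimmer Etv4 probe set were among the 11 through their wild-type values. None of the 11 had all Ret-deficient arrays higher, as 5.17% of all tested probe sets did. By the brightest probe set of each gene, 5 of 6 genes had a negative log2 difference (Ret-deficient minus wild-type, on log2 of signal plus 16) and 1 a positive one, with a median of -0.41, beside a median of 0.003 over 11581 genes. Array by array this median did not separate the groups: against the wild-type mean it was -0.26 in wild-type replicate 1 and -0.51, -0.45 and -0.14 in Ret-deficient replicates 1, 2 and 3.

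**Figure D1:**
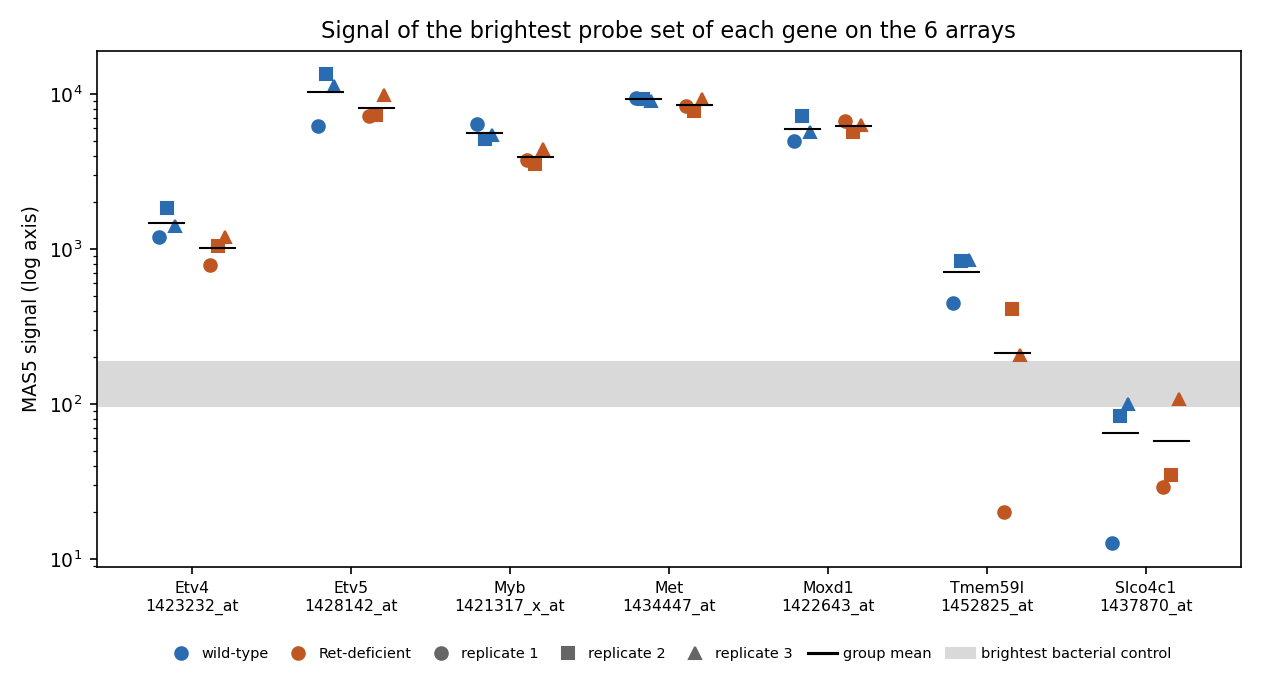
MAS5 signal (log axis) of the brightest probe set of each of the 7 genes, as points for the 3 wild-type (blue) and 3 Ret-deficient (orange) arrays, with bars at the group means and a grey band for the range of the brightest bacterial control (97.2 to 186.9). The groups separate for Myb and Tmem59l, overlap for the others, and Slco4c1 lies at or below the band.

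Etv4 was lower in the Ret-deficient kidneys by its means, with groups that just overlapped. Its brighter probe set, 1423232_at, read 1194, 1839 and 1403 in wild-type replicates 1, 2 and 3, and 787.8, 1050 and 1202 in Ret-deficient replicates 1, 2 and 3. Ret-deficient replicate 3 was thus the single array of its group to reach the wild-type range, above wild-type replicate 1. The means were 1478 ± 329 and 1013 ± 209 (SD, n = 3 per group), a log2 difference of -0.54 (SE 0.24, 95% interval -1.11 to 0.03, limma adjusted p = 0.92). An exact two-sided permutation test gave p = 0.2, where 3 arrays against 3 cannot give less than 0.1. The dimmer probe set, 1443381_at, read 297.7, 525.0 and 403.4 against 134.9, 179.7 and 448.2, a log2 difference of -0.79 (SE 0.44, limma adjusted p = 0.94). There too replicates 1 and 2 were below every wild-type array, and replicate 3 was not. This dimmer probe set passed the filter through its wild-type values (mean log2 of 8.69, against 7.90 in Ret-deficient kidneys and a limit of 8.19). Its place among the tested probe sets is therefore no support for a difference.

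Etv5 was bright in all 6 samples, also in the sample in which Ret and Cdh1 were at background. Its brightest probe set, 1428142_at, read 6229, 13417 and 11265 in wild-type and 7157, 7279 and 9856 in Ret-deficient kidneys. All 3 Ret-deficient arrays lay between wild-type replicate 1, the lowest of all, and wild-type replicate 3. The log2 difference was -0.29 (SE 0.31, 95% interval -1.04 to 0.46, limma adjusted p = 0.96, exact permutation p = 0.6). Its size rested on single wild-type arrays: it was -0.62 without wild-type replicate 1 (limma adjusted p = 0.95) and -0.06 without wild-type replicate 2 (limma adjusted p = 0.998).

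The 2 dimmer Etv5 probe sets were designed on the same source sequence and showed the same low wild-type replicate. Probe set 1450082_s_at, whose suffix marks probes that can match more than 1 transcript, read 349.6, 2025 and 1237 against 530.4, 665.0 and 792.2. Probe set 1420998_at read 182.9, 577.8 and 364.5 against 316.3, 318.2 and 253.2, and its value of 182.9 was not above the brightest control of that array (186.9). Their log2 differences were -0.55 (SE 0.60) and -0.20 (SE 0.39), both with groups that overlapped. The 3 probe sets of Etv5 all had negative differences, each smaller than its own standard error.

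The 3 probe sets shared by Etv1 and Gm5454 cannot be assigned to either and are not counted. The brightest, 1450684_at, read 3888, 3725 and 3241 in wild-type and 3165, 2901 and 3083 in Ret-deficient kidneys. The groups did not overlap, and the log2 difference was -0.24 (SE 0.16, limma adjusted p = 0.94). Another, 1422607_at, went the other way by its means (0.16, SE 0.42), with its lowest value, 1264, again in wild-type replicate 1. The dimmest, 1445314_at, read 109.5 to 260.5 and was below the filter.

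Myb, a transcription factor best known from blood progenitors, had a negative difference at each of its 3 probe sets, with groups that did not overlap at 2 of them. The brightest, 1421317_x_at, read 6374, 5127 and 5417 in wild-type and 3770, 3556 and 4430 in Ret-deficient kidneys. Every Ret-deficient array was below every wild-type array. The means of 5639 ± 652 and 3919 ± 455 gave a log2 difference of -0.52 (SE 0.17, 95% interval -0.94 to -0.11), or 1.44-fold lower on this scale. The limma test gave p = 0.021 and adjusted p = 0.87, and the exact permutation test gave p = 0.1, its smallest value.

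The other Myb probe sets, whose suffix marks several transcripts of the same gene, gave the same direction. Probe set 1422734_a_at read 377.4, 729.4 and 601.8 against 279.0, 314.3 and 375.2, again without overlap, though by only 2.2 signal units between the nearest arrays. Probe set 1450194_a_at read 1136, 1408 and 1568 against 719.1, 562.1 and 1242, so that Ret-deficient replicate 3 lay above wild-type replicate 1. Their log2 differences were -0.75 (SE 0.27) and -0.76 (SE 0.31), with limma adjusted p of 0.91 and 0.92. The x in the suffix of the brightest probe set marks probes that may also bind other sequences, which does not apply to these. Because the probe sets read the same RNA samples, they are not independent replicates.

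Summed over the list, blood markers overlapped between the groups, but the globin genes Hbb-y and Hba-x make up most of that sum. It therefore says little about blood progenitors. Gata1, another marker of the list, read 677.4 to 2095 in wild-type and 433.5 to 2871 in Ret-deficient kidneys. The signal of 8 blood progenitor and erythroid markers was 120365 to 151109 in wild-type and 128418 to 163794 in Ret-deficient kidneys, and of 7 tested 2 had a negative difference. The embryonic globin gene Hbb-y and Hba-x were bright on all arrays, and Kit, a receptor of blood progenitors and other cells, read 1427 to 1821 in wild-type and 1840 to 1925 in Ret-deficient kidneys, the 1 of 7 tested whose groups did not overlap (higher in Ret-deficient kidneys). The part of blood cells in the Myb signal was not tested.

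Met, which encodes the receptor of hepatocyte growth factor, differed little. Its bright probe set, 1434447_at, read 9479, 9316 and 9031 in wild-type and 8413, 7791 and 9262 in Ret-deficient kidneys. Replicates 1 and 2 of the Ret-deficient group were below all wild-type arrays and replicate 3 was within their range. The log2 difference was -0.13 (SE 0.15, 95% interval -0.49 to 0.23, limma adjusted p = 0.96), and on the fold scale the interval reaches from 1.41-fold lower to 1.18-fold higher. A dim probe set, 1422990_at, read 57.8 to 174.6, was above the brightest control on 1 array only (Ret-deficient replicate 2) and gives no fold change.

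Moxd1, a monooxygenase related to dopamine beta-hydroxylase, had the only positive difference among the 6 genes. Probe set 1422643_at read 4942, 7177 and 5652 in wild-type and 6645, 5669 and 6330 in Ret-deficient kidneys. All Ret-deficient arrays were within the wild-type range. The log2 difference was 0.08 (SE 0.19, 95% interval -0.38 to 0.54, limma adjusted p = 0.98), and it was negative, -0.038, without wild-type replicate 1.

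Tmem59l, a transmembrane protein best known from neurons, had the largest difference of the 6 genes. Probe set 1452825_at read 449.2, 839.7 and 844.2 in wild-type and 20.0, 407.2 and 207.8 in Ret-deficient kidneys. All Ret-deficient arrays were below all wild-type arrays, and replicate 1, at 20.0, was below the brightest control of that array (128.2). The log2 difference was -2.22 (SE 0.86, 95% interval -4.26 to -0.17, limma p = 0.037, adjusted p = 0.92, exact permutation p = 0.1), which is approximate because of the value at background. The probe set passed the filter on dim probe sets through its wild-type values (mean log2 of 9.45, against 7.23 in Ret-deficient kidneys and a limit of 8.19), so its place among the tested probe sets is no support for the difference. Without Ret-deficient replicate 1 it was -1.18 (SE 0.40, limma adjusted p = 0.91), with the direction kept.

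Markers of the ureteric epithelium and of neural cells are set beside Tmem59l here, array by array. Of 12 tested ureteric epithelium markers 12 had a negative difference, with a median of -1.23. Against the wild-type mean, these markers stood at a median of -3.19, -0.23 and -0.69 in Ret-deficient replicates 1, 2 and 3, and Tmem59l stood at -4.28, -0.73 and -1.64, in the same order. Single ureteric markers differed in this: Krt8 kept the order (1110, 11251 and 6851). Calb1 (128.1, 13353 and 20482) and Krt19 (290.5, 413.2 and 139.5) did not. Neural crest and neuron markers stood at medians of -0.48, -1.0 and -1.44 in the same replicates, in another order. Of the 4 tested 4 had a negative difference, none past the limma test, and for 1 of them, Sox10, the groups did not overlap. The 5 on the array, including Th, which was below the filter and had a positive difference, summed to 7475 to 11345 in wild-type and 4010 to 5617 in Ret-deficient kidneys. Of these 5, at most 2 on an array were not above the brightest control, and the other 3 listed had no probe set of their own. The neuronal tubulin gene Tubb3 read 291.6, 612.3 and 713.6 in wild-type and 354.7, 204.8 and 174.5 in Ret-deficient replicates 1, 2 and 3. The part of either cell type in the Tmem59l value was not tested.

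Slco4c1, an organic anion transporter of the kidney, gave no usable level. Probe set 1460616_at read 84.9, 61.5 and 57.3 in wild-type and 12.1, 6.0 and 15.3 in Ret-deficient kidneys, with no overlap, but the brightest control exceeded each of the 6 values on the same array. Probe set 1437870_at read 12.6 to 99.5 in wild-type and 29.1 to 108.1 in Ret-deficient kidneys and exceeded the control on 1 array only (wild-type replicate 3). Both were below the filter, and no fold change is given. In a limma fit without the filter the first had an adjusted p of 0.71.

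**Figure D2:**
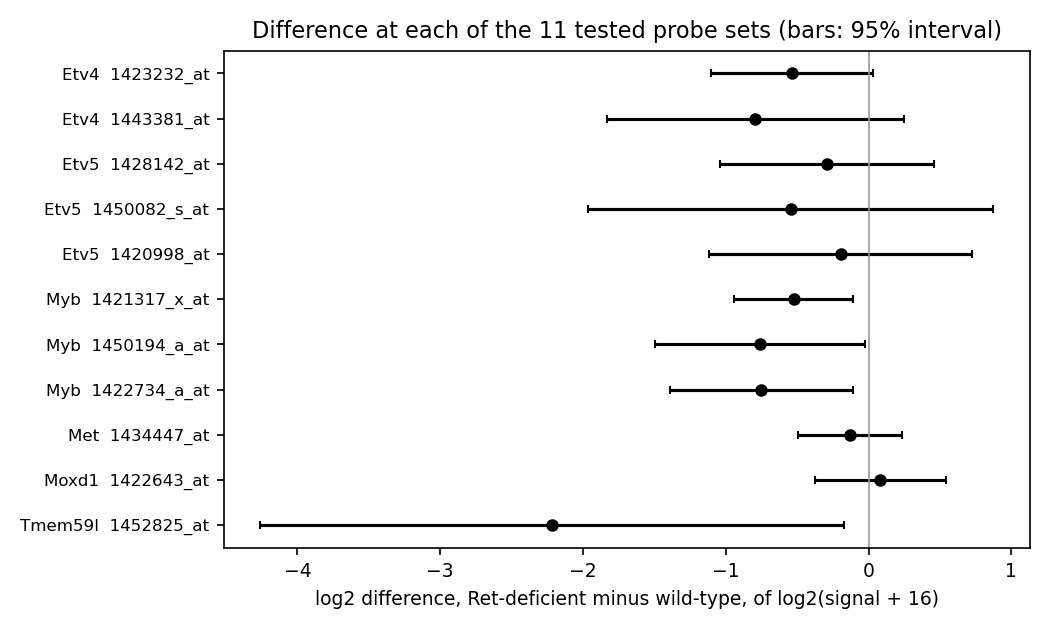
Log2 difference (Ret-deficient minus wild-type) of each of the 11 tested probe sets, with the 95% interval of the limma fit, not adjusted for the number of probe sets. The intervals of the 3 Myb probe sets and of Tmem59l lie below 0, and those of Etv4, Etv5, Met and Moxd1 include 0.

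The genes parted most in Ret-deficient replicate 1, in which the ureteric markers were lowest. There Tmem59l was at 2.81% of the wild-type mean. By their brightest probe sets Etv4 was at 53.3%, Myb at 66.9%, Etv5 at 69.5%, Met at 90.7% and Moxd1 at 112% in that sample. The dimmer probe sets of Etv4 and Etv5 stood at 33% (1443381_at), 44.1% (1450082_s_at) and 84.3% (1420998_at). Those of Myb stood at 52.5% (1450194_a_at) and 49.0% (1422734_a_at). The ureteric markers together were at 11.4% of the lowest wild-type sum, and the tested ones at a median of -3.19 log2 units against the wild-type mean. Single ureteric markers spread widely on this array, from 0.245% (Cldn7) and 1.61% (Cdh1) of their wild-type mean to 51.7% (Tfap2b) and 64.5% (Krt19). Etv4, at 53.3%, lay between these last 2 markers. All these values describe 1 sample, with no test.

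In Ret-deficient replicate 2 the ureteric markers summed to 94.6% of the lowest wild-type array, and Ret read 479.8. Against the wild-type mean, the measure used for the genes next, the tested ureteric markers had a median of -0.23 log2 units. By their brightest probe sets all 6 tested genes were below their wild-type mean on this array. Tmem59l was at 57.3%, Myb at 63.1%, Etv5 at 70.6%, Etv4 at 71.0%, Met at 84.0% and Moxd1 at 95.7%. Dimmer tested probe sets stood at 41.0% (1450194_a_at) and 55.2% (1422734_a_at) for Myb and 44.0% (1443381_at) for Etv4. Those of Etv5 stood at 55.2% (1450082_s_at) and 84.8% (1420998_at), so the order depends on the probe set. Of the 6, 4 (Etv4, Myb, Met and Tmem59l) were below the lowest wild-type array, as were 27.9% of all 11581 genes on this array. In Ret-deficient replicate 3, where the ureteric sum was 78.5% of the lowest wild-type one, 2 of the 6 were below it (Myb and Tmem59l), beside 25.3% of all genes. That array also had the highest macrophage marker sum, 22670, against 6040 to 9007 in wild-type kidneys. The part of macrophages in the values of this array was not tested. In replicate 1, 4 of 6 were below the lowest wild-type array, beside 28.2% of all genes.

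**Figure D3:**
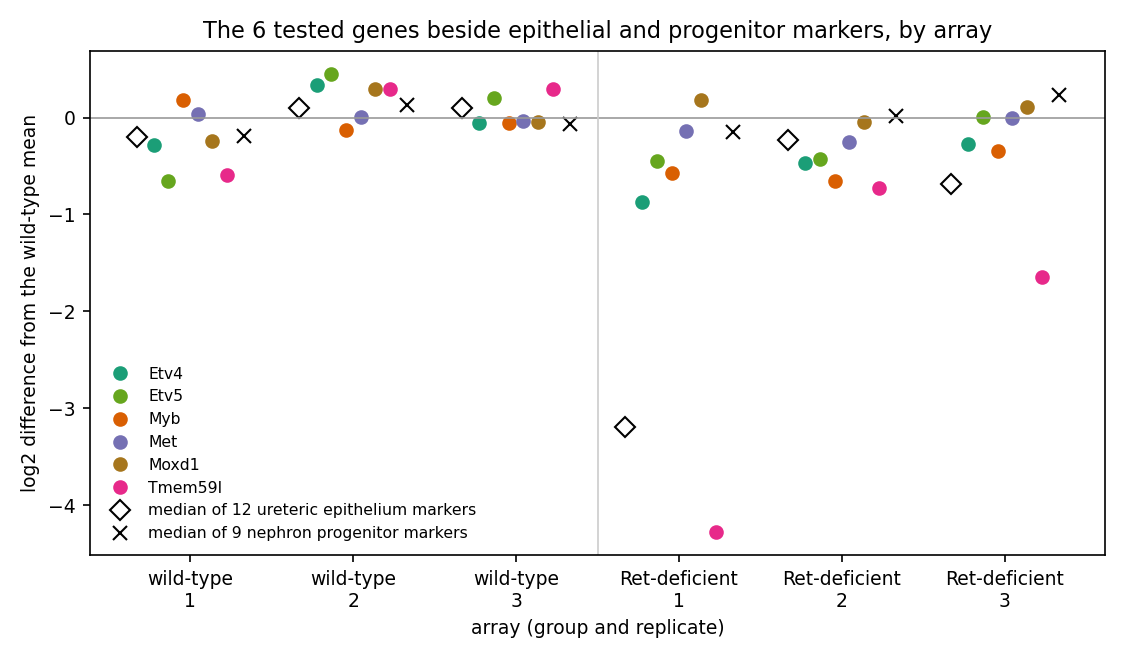
Log2 difference of each tested gene (coloured points) from its wild-type mean on each of the 6 arrays, with the median of 12 ureteric epithelium markers (diamonds) and of 9 nephron progenitor markers (crosses). In Ret-deficient replicate 1 Tmem59l (-4.28) and the ureteric median (-3.19) stand far below the other genes, which lie between -0.87 and 0.18.

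The order of the genes by log2 difference, from the lowest, was Tmem59l (-2.22), Etv4 (-0.54), Myb (-0.52), Etv5 (-0.29), Met (-0.13) and Moxd1 (0.08). The 95% interval of each included the value of the next gene in this order. The profiles of Etv4 and Etv5 over the 6 arrays, each centred on its own mean, had a root mean square gap of 0.25 log2 units. The smallest gap, 0.20, was between Met and Moxd1, and Tmem59l was at least 1.26 from every other gene. This gap grows with how much a gene varies. The root mean square spread was 0.099 for Met and 0.176 for Moxd1, against 0.37 for Etv4, 0.39 for Etv5 and 1.57 for Tmem59l. The small gap of Met and Moxd1 therefore does not show that they vary alike.

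The genes whose centred profile lay closest to each of these were found among all tested genes. They were picked for this closeness on the same 6 arrays, so their likeness is no separate support. For Tmem59l they were Pantr1, a long noncoding RNA gene, Cldn6, a claudin of tight junctions in embryonic epithelia, and Wnt6, a Wnt ligand, with gaps of 0.21, 0.36 and 0.41 log2 units over 6 arrays. Pantr1 read 1392, 2941 and 2835 in wild-type and 100.4, 1195 and 482.7 in Ret-deficient kidneys. In Ret-deficient replicate 1 Pantr1, Wnt6 (38.4) and Tmem59l (20.0) were all below the brightest control of that array (128.2). For Myb they were Shroom3, a regulator of cell shape in epithelia, Btaf1 and Dennd4b, with gaps of 0.06, 0.08 and 0.08. Shroom3 read 10757, 9608 and 9612 in wild-type and 6454, 6332 and 7273 in Ret-deficient kidneys, also without overlap, which the choice by closeness favours. For Etv4 they were the phosphatase gene Cdc14b, Zc2hc1c and Nolc1, with gaps of 0.08, 0.08 and 0.12, and for Etv5 Kctd13, Ubxn2b and Gnl3l, with gaps of 0.10, 0.10 and 0.11. For Met they were Senp5, Ndst2 and Orc2 (0.01, 0.03 and 0.03) and for Moxd1 Bod1l, Sh3glb2 and H2bc22 (0.04, 0.04 and 0.05), genes that varied as little as Met and Moxd1 did.

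Other genes of the pathway were taken from a list of 57, of which 54 had a probe set and 47 were tested. None passed an adjusted p of 0.05 in limma. At an unadjusted p under 0.05, 5 were lower and 4 higher, beside 2.74% lower and 2.63% higher over all tested probe sets. The 5 became 3 without wild-type replicate 2 or 3 and 8 without Ret-deficient replicate 2 or 3. The 4 became 1 with any single wild-type array left out and 2 without Ret-deficient replicate 1 or 2.

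Upstream of the Etv genes, 9 of 11 tested genes of the GDNF and RET complex and its regulators had a negative difference, with a median of -0.42. Ret (-5.43, limma adjusted p = 0.51), the transcription factor Gata3 (-1.14) and Gdnf, the ligand (-0.97), were the 3 with an unadjusted p under 0.05, and their groups did not overlap. Gdnf read 2777, 4442 and 3317 in wild-type and 1772, 1698 and 1800 in Ret-deficient kidneys. Spry1, an inhibitor of RET signalling, had -0.36 (SE 0.19). Among 5 tested genes listed as FGF ligands and receptors, not all of which need drive Etv genes, 2 were negative and 3 positive. The receptor genes Fgfr1 (0.41, SE 0.16) and Fgfrl1 (0.44, SE 0.18) were higher without overlap. Fgf9 had -0.91 (SE 0.45), with 116.3 in Ret-deficient replicate 1, below the brightest control of that array (128.2). Fgf10 had -0.16 (SE 0.24), and none of these genes passed the limma test.

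Of 11 tested bud tip genes other than those above, 6 had a negative and 5 a positive difference (median -0.02). Lhx1, a transcription factor of the bud and of early nephrons, had -3.13 (SE 1.5), with a value of 5.0 in Ret-deficient replicate 1. The homeobox gene Emx2 had -1.60 (SE 0.68), the chemokine receptor gene Cxcr4, also placed downstream of Etv4 and Etv5, -0.97 (SE 0.43), and Sox9 0.42 (SE 0.21). Cxcr4 read 9974, 14155 and 13328 in wild-type and 3205, 7490 and 10420 in Ret-deficient kidneys, with replicate 3 just inside the wild-type range, as for Etv4.

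Genes of ERK feedback and early response, which share the upstream signal with the Etv factors, had 6 negative and 7 positive differences among 13 tested, with a median of 0.06. Dusp14, a phosphatase, had -0.52 (SE 0.20) and Spry4, a feedback inhibitor, -0.53 (SE 0.53). The early response gene Egr1 was higher without overlap, at 3874, 2309 and 2025 in wild-type and 41421, 30930 and 3968 in Ret-deficient kidneys. The log2 difference was 2.70 (SE 0.85, limma adjusted p = 0.87). Fos, at 2351, 3027 and 640.6 against 33376, 38118 and 405.0, was high on the same 2 Ret-deficient arrays. By their brightest probe sets Etv4 and Etv5 read lower on those arrays than in replicate 3.

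Of the genes around Met, 4 of 7 tested had a negative and 3 a positive difference (median -0.39). Hpn, which encodes hepsin, a protease able to activate the ligand, was lower without overlap (-0.68, SE 0.21). The protease inhibitor genes Spint1 and Spint2 had -1.06 (SE 0.77) and -0.39 (SE 0.52). Egfr, a related growth factor receptor, had 1.71 (SE 0.71), with groups that overlapped. It read 200.1, 190.8 and 232.6 in wild-type and 780.7, 221.4 and 2035 in Ret-deficient kidneys. Wild-type replicate 1 was just above the brightest control of that array (186.9). Hgf, the ligand, read 149.6 to 252.4 in wild-type and 222.7 to 347.4 in Ret-deficient kidneys and was below the filter.

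**Figure D4:**
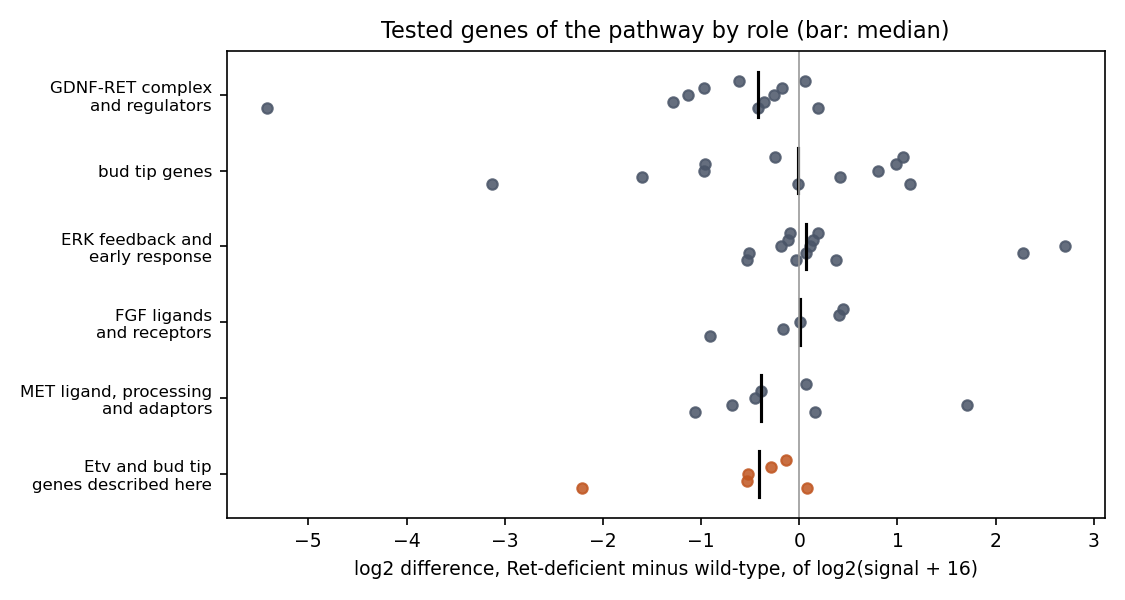
Log2 difference (Ret-deficient minus wild-type) of the tested genes of each role, 1 point per gene, with a bar at the median. The genes described here (orange) have a median of -0.41, and the point at -5.43 is Ret.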

How the data were processed

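RNA of whole embryonic kidneys was measured in 6 samples, 1 array each, with groups taken from the titles. The deposited values are MAS5 signal intensities on a linear scale, per the submitters' processing notes; how they were scaled and called present is not given in the sources used here. Per the labels' design text the RNA was amplified before hybridization, while the protocol field describes standard labelling. The number of arrays limits the precision.

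Values were used as log2(value + 16), a scale that understates the change of dim probe sets, without further normalization because the array medians differed by 0.42, under a limit of 0.5. Without the 64 control probe sets, those at or above the median mean level were tested (22519). Symbols came from the array annotation, updated by gene ID (RefSeq, 99.4%); 34958 probe sets had 1 symbol, 932 several and 9211 none. Each gene was represented by its brightest tested probe set. Limma 3.58.1 in R 4.3.3 compared the groups, with Benjamini-Hochberg adjustment over all tested probe sets. On simulated data with 22519 probe sets it recovered 8.96% of changes of 1 log2 unit, 83.6% of 2 and 97.0% of 4, with 9 false calls. These rates do not carry over to the measured arrays, where limma left Ret uncalled (adjusted p = 0.51) at -5.43 log2 units. The lack of calls therefore does not show that large changes are absent. P-values measure the spread between these samples.

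Named genes were the listed ones, Ret, up to 4 genes with the smallest p per role of the pathway list, and the 3 nearest profiles per gene, without clone names; Hgf, Tubb3, Kit and other markers were chosen after their values were seen. The genes and lists were chosen with earlier results of these data known. Alternatives were pseudocounts of 1 and 64, no filter, quantile normalization, median centring, an intensity trend, array weights, the replicate number as a block, averaging all probe sets of a gene, and each array left out.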

Additional observations from a re-analysis of the deposited data

How the results depend on the processing

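Over the 15 alternatives 0 of the tested genes among the 8 passed an adjusted p of 0.05, and Etv4, Etv5, Myb and Tmem59l kept a negative difference in all, with ranges of -0.78 to -0.37, -0.68 to -0.06, -0.68 to -0.41 and -2.96 to -1.18. Met became positive with the mean of its probe sets (0.11), 1 of which is at background, and Moxd1 negative with array quality weights (-0.11) and without wild-type replicate 1 (-0.038, the lowest of -0.038 to 0.23 with 1 array left out). The median over the genes, -0.41, was -0.29 without the filter, which adds Slco4c1, -0.30 with median centring and -0.57 with array weights, and -0.53 to -0.25 with 1 array left out. Median centring moved the median of all tested probe sets from -0.01 to 0.10. The count of 0 called probe sets became 1, Ret, with median centring and with an intensity trend, and ranged from 0 to 1 with 1 array left out. At an unadjusted p under 0.05 the main count was 1209. The 5 lower pathway genes were 13 with array weights and 8 with the replicate block, and 3 to 8 with 1 array left out. The 4 higher ones were 1 without the filter and 2 with the mean of probe sets, and 1 to 4 with 1 array left out. Beyond what the alternatives themselves change (genes, samples or weights), the cause was not tested. Same-numbered arrays did not deviate together (correlations of 0.03, -0.04 and -0.12). With 3 arrays per group this cannot exclude a pairing, and the labels do not name the litters. With the replicate block 0 probe sets passed and 1141 had an unadjusted p under 0.05 in limma. The SE of the Tmem59l difference was 0.52 with the block and 0.86 without it. Signals near the bacterial controls limit Slco4c1, the dim Met probe set and Tmem59l in Ret-deficient replicate 1.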
